A study of Mus musculus with 9 samples.

Results

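The 10 genes described here, Arntl, Clock, Per1, Per2, Per3, Cry1, Cry2, Nr1d1, Nr1d2 and Dbp, are genes of the circadian clock. They were taken by symbol from 46517 gene rows, each member matched 1 row, and all 10 passed the filter on low counts. RNA was sequenced in bulk from 4 cell populations sorted by flow cytometry from mouse back skin at postnatal day 30, at anagen VI, when the follicle is in full growth. Suprabasal hair bulb cells (suprabasal HB), basal hair bulb cells (basal HB) and cells of the outer root sheath (ORS), the layer that surrounds the growing hair, gave 2 libraries each. Hair follicle stem cells (HFSC) of the bulge, the store from which the follicle regrows, gave 3 libraries. All 9 libraries carry the same labels: an Lhx2-GFP line on the CD1 background, mixed sex, and a sort on GFP together with CD34, Sca-1, Pcadherin and the integrins α6 and b1. No treatment is named. The extraction text names K14-H2BGFP mice instead, in which a keratin promoter drives GFP in basal epithelial cells, so the source of the GFP is not settled. Gates, mice per library and the source of replicates are not stated, so a p-value measures only the spread between these samples.

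The clock is a feedback loop of transcription that runs in most mammalian cells. BMAL1, the product of Arntl, pairs with CLOCK on DNA sites called E-boxes and switches on the Per, Cry, Nr1d and Dbp genes; PER and CRY proteins then return to the nucleus and block the pair. REV-ERB proteins, made from Nr1d1 and Nr1d2, repress Arntl through sites called ROREs, and DBP activates genes through D-boxes. In mouse skin the clock genes are known to cycle in the follicle, and follicles of mice that lack Arntl are slow to advance in the growth phase. Since these RNAs rise and fall over the day and the time of collection is not stated in the labels, a difference between populations and a difference in collection time cannot be told apart.

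The sites through which the loop closes were looked for in the promoters of the members, from 250 bases before to 50 bases after each RefSeq start (build GRCm38.p6). There were 13 promoters of 9 members and none of Per2, so Per2 was not searched. The E-box was searched as CACGTG, a variant E-box as CACGTT, the D-box as TTATGTAA and the RORE by its consensus, on both strands. The 4 windows below are shown because they hold the matches to the E-box, the D-box and the RORE, in capitals; variant E-boxes are given by position only. Each is written 5′ to 3′ on the strand of the gene.
Arntl, RORE, chr7:113207527-113207556, plus strand: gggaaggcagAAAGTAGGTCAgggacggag
Cry1, E-box, chr10:85185055-85185204, minus strand: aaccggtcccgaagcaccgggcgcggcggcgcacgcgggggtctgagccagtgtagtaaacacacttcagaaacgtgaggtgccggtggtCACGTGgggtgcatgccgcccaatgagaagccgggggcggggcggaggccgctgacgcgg
Per1, E-box, chr11:69098749-69098898, plus strand: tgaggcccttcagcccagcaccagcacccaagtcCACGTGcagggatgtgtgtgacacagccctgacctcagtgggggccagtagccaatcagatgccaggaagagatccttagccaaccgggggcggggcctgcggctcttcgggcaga
Per3, D-boxes, chr4:151044746-151044895, minus strand: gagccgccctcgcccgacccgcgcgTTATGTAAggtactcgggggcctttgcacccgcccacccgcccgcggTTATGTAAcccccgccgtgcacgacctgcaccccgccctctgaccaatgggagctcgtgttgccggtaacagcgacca

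The Cry1 E-box began 60 bases before its start, and that of Per1 166 bases before the first of its 2 listed starts. The Per1 E-box (chr11:69098783-69098788) lies within the Per1 gene as annotated (chr11:69095217-69109960, plus strand), past the first base of the gene. The 2 D-boxes of Per3 began 205 and 158 bases before its start, and the RORE of Arntl lay 27 bases after the second of its 2 listed starts. Variant E-boxes were found in the promoters of Cry1, Cry2 and Nr1d1, at 79, 166 and 28 bases before the start; the variant in Cry1 lies in the printed window, in lower case, and does not overlap its E-box. The promoters of Clock, Nr1d2 and Dbp held no match. Of the 13 promoters of members, 2 held the E-box, 3 the variant, 1 the D-box and 1 the RORE. Among all 32851 mouse promoters of this length, 7.15% held the E-box, 4.68% the variant, 0.938% the D-box and 0.384% the RORE. These matches are letters in a window, and binding was not measured here.

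Depth and sample make-up touch the comparisons as follows. Total expected counts, the estimated reads per gene summed over a library, were 45438637 and 50752545 in suprabasal HB, 60990600 and 63511683 in basal HB, 64569201 and 88596741 in ORS, and 25098237 to 29902799 in HFSC. The least covered member, Dbp, still had 46 counts in its lowest library. Mitochondrial RNA made up 4.36% of the counts in each suprabasal HB library, against 2.28% to 2.89% elsewhere. Ddx3y, a Y-linked gene, was at 51.7 to 96.2 normalised CPM (counts scaled to library size) in the other populations and at most 0.0364 in HFSC. Xist, made from the inactive X chromosome, was at 1.05 to 1.23 in suprabasal HB, 298 to 360 in basal HB, 1.11 and 1459 in ORS, and 1188 to 1437 in HFSC. Population and sex make-up cannot be told apart in comparisons with HFSC or between suprabasal and basal HB, and the 2 ORS libraries differ in sex make-up. The bulge gene Sox9 was at 1.97, 7.46, 16.6 and 137 CPM and Cd34 at 22.3, 38.1, 73.2 and 379 CPM in suprabasal HB, basal HB, ORS and HFSC, but the whole list of 6 HFSC markers summed to 329 to 572, 760 to 1078, 4691 to 5797 and 4789 to 5298 CPM, so its sum did not set HFSC apart from ORS. Summed outer root sheath keratins were higher in HFSC (9056 to 11400 CPM) than in ORS (3251 to 3878 CPM), and summed basal HB markers were alike in suprabasal HB (1790 to 1857 CPM), basal HB (1749 to 1770 CPM) and ORS (1743 to 1817 CPM). Summed inner sheath and shaft genes were lower in suprabasal HB (2121 to 3098 CPM) than in basal HB (4281 to 4596 CPM), although the inner sheath keratins Krt25 (670 against 175 CPM) and Krt71 (692 against 106 CPM) were higher in suprabasal HB. None of the 4 list sums thus set its own population apart from all others. Markers of pigment cells summed to 14970 and 15280 CPM in suprabasal HB, 883 and 1321 in basal HB, 75.9 and 327 in ORS, and 88.8 to 152 in HFSC, with all 8 of 8 detected in every library. Markers of smooth muscle, with 4 of 4 detected in every library, summed to 41.9 to 62.0 CPM in suprabasal HB, 1152 to 1314 in basal HB, 416 to 523 in ORS and 1639 to 2244 in HFSC, and 1 of them, Myh11, was at 385 to 396 CPM in basal HB and at most 23.0 elsewhere. Like these sums, Arntl, Per1, Per2 and Cry2 had their lowest mean in suprabasal HB and their highest in HFSC; the part of smooth muscle cells in those results was not tested. In bulk samples fewer cells of a type and less RNA per cell cannot be told apart.

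Of the 10 clock genes, 8 differed among the 4 populations (edgeR quasi-likelihood test, adjusted p under 0.05), and Per3 and Nr1d1 were not called. Of all 20491 genes tested, 65.6% differed, so 8 of 10 is not far above the background. The most calls, 8 of 10, were in suprabasal HB over HFSC, where Arntl, Clock, Per1, Per2 and Cry2 were lower and Cry1, Nr1d2 and Dbp higher; 51.5% of all genes were called there. The fewest, 1 of 10, were in basal HB over ORS, where Nr1d2 was lower; 30.5% of all genes were called there. Counted per length, as TPM, the 10 genes summed to 85.2 and 98.3 in suprabasal HB, 131 to 146 in basal HB, 124 to 153 in ORS and 110 to 149 in HFSC. TPM add up to a fixed sum in each library. As log2(TPM + 1), the median change of all genes in suprabasal HB was -0.16 over basal HB, -0.13 over ORS and 0.05 over HFSC. Per1 had the highest mean TPM of the 10 in basal HB (38.8), ORS (34.6) and HFSC (38.4), and Cry1 did in suprabasal HB (19.4). Dbp had the lowest mean in basal HB (5.69), ORS (4.62) and HFSC (2.60), and Per2 did in suprabasal HB (3.32).

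**Figure D1:**
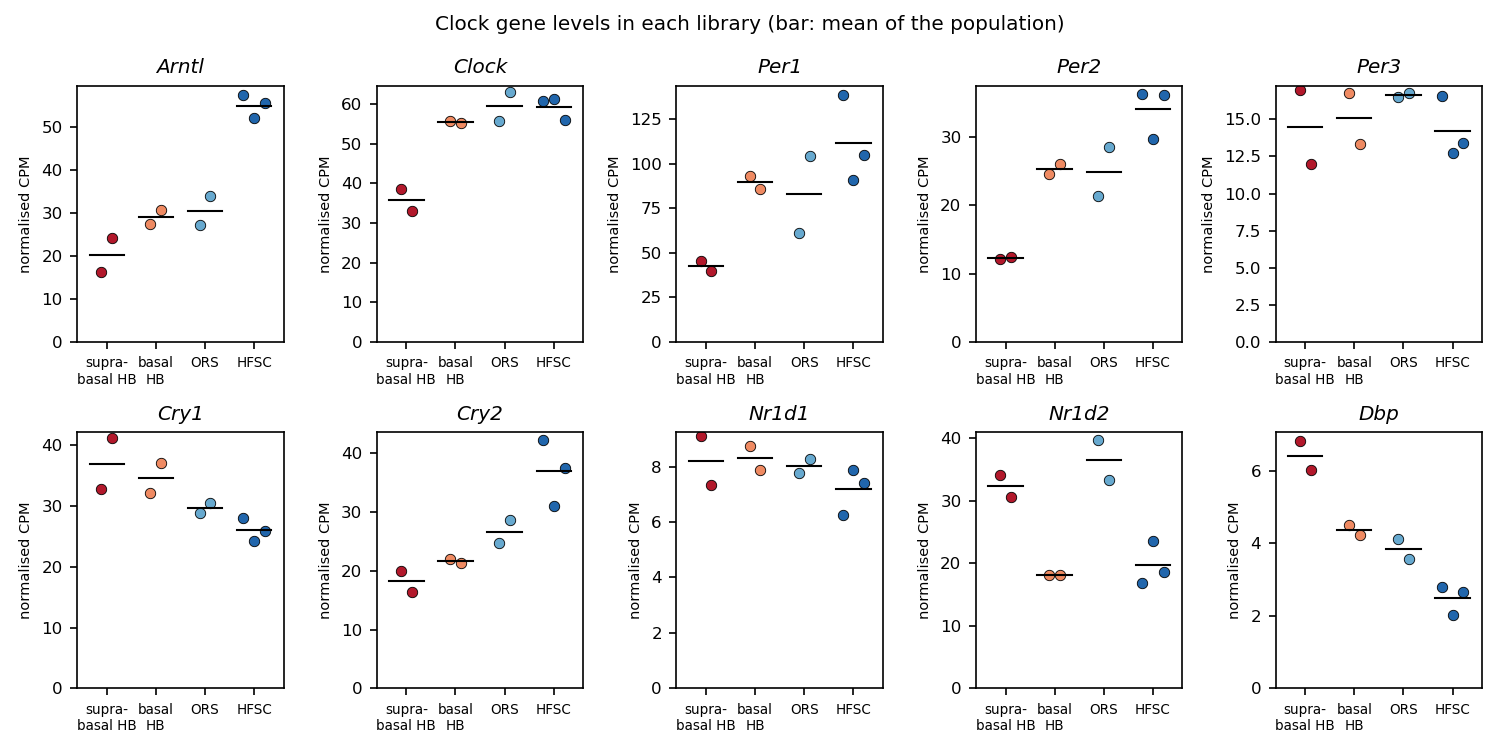
Normalised CPM (linear axis from 0) of each clock gene in the suprabasal HB, basal HB, ORS and HFSC libraries; each point is 1 library and each bar the population mean. Arntl is lowest in suprabasal HB (16.3 and 24.2) and highest in HFSC (51.9 to 57.4), while Dbp runs the other way (6.02 and 6.82 in suprabasal HB, 2.04 to 2.79 in HFSC).

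Arntl (ENSMUSG00000055116; chr7:113207465-113314126, plus strand) encodes BMAL1, the activator whose loss stops the clock. It had 16.3 and 24.2 normalised CPM in suprabasal HB, 27.4 and 30.7 in basal HB, 27.1 and 33.9 in ORS, and 57.4, 51.9 and 55.4 in HFSC. Every HFSC library lay above every other library, and both suprabasal HB libraries lay below all others. Relative to HFSC, Arntl was 2.72-fold lower in suprabasal HB (log2 change -1.44, SE 0.17, edgeR adjusted p = 0.000158), 1.89-fold lower in basal HB (-0.92, SE 0.17, edgeR adjusted p = 0.0021) and 1.80-fold lower in ORS (-0.85, SE 0.17, edgeR adjusted p = 0.00405). These calls held under every alternative setting run. Suprabasal HB was 1.51-fold below ORS (-0.60, SE 0.18, edgeR adjusted p = 0.0368), a call lost without ORS replicate 2 (-0.43, adjusted p = 0.212), suprabasal HB replicate 1 (-0.34, 0.157), HFSC replicate 3 (-0.59, 0.0536) or either basal HB library (-0.60, 0.0559 and 0.056). Between suprabasal and basal HB the log2 change of -0.53 (95% interval -0.94 to -0.11, edgeR adjusted p = 0.0613) missed the threshold, but it was called under 8 of the 18 alternatives. These were RLE scaling (-0.56, adjusted p = 0.0464), upper-quartile scaling (-0.59, 0.0316), no filter (-0.54, 0.0355), a stricter filter (-0.56, 0.0431), DESeq2 (-0.56, 0.02), limma on log2(TPM + 1) and log2(TPM + 0.1) (-0.76 and -0.81, 0.012 and 0.0121), and the fit without suprabasal HB replicate 2 (-0.87, 0.00773). On the log2(TPM + 1) and log2(TPM + 0.1) scales the median of all genes shifted in the same direction in that comparison, by -0.16 and -0.25. Basal HB and ORS did not differ beyond their spread (-0.07, 95% interval -0.48 to 0.34).

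Clock (ENSMUSG00000029238; chr5:76209868-76304792, minus strand) encodes the partner of BMAL1. It had 38.6 and 33.0 CPM in suprabasal HB, 55.7 and 55.2 in basal HB, 55.7 and 63.0 in ORS, and 60.8, 61.1 and 55.9 in HFSC. The suprabasal HB libraries stood below the rest, which lay between 55.2 and 63.0. Clock was 1.66-fold lower in suprabasal HB than in HFSC (-0.73, SE 0.10, edgeR adjusted p = 0.000301), 1.66-fold lower than in ORS (-0.73, SE 0.10, adjusted p = 0.000945) and 1.55-fold lower than in basal HB (-0.63, SE 0.10, adjusted p = 0.00274). The other 3 comparisons were not called: the log2 changes were -0.10 (95% interval -0.31 to 0.12) for basal HB over HFSC, 0.00 (-0.21 to 0.22) for ORS over HFSC and -0.10 (-0.33 to 0.14) for basal HB over ORS.

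Per1 (ENSMUSG00000020893; chr11:69095217-69109960, plus strand) encodes a PER repressor whose gene also answers quickly to outside signals such as serum and glucocorticoids. It had 45.2 and 39.7 CPM in suprabasal HB, 93.3 and 85.8 in basal HB, 61.0 and 105 in ORS, and 139, 91.0 and 105 in HFSC. Both suprabasal HB libraries were below all others, and the other 3 populations overlapped. Suprabasal HB was 2.63-fold below HFSC (-1.39, SE 0.25, edgeR adjusted p = 0.00144), 1.95-fold below ORS (-0.96, SE 0.26, adjusted p = 0.0218) and 2.11-fold below basal HB (-1.08, SE 0.26, adjusted p = 0.0151). The call against ORS was lost without ORS replicate 2 (-0.52, adjusted p = 0.147), suprabasal HB replicate 1 (-1.06, 0.0576) or replicate 2 (-0.86, 0.116). The call against basal HB was lost without basal HB replicate 1 (-1.02, adjusted p = 0.0815), basal HB replicate 2 (-1.14, 0.0527) or suprabasal HB replicate 2 (-1.02, 0.0786). ORS over HFSC was not called (-0.43, adjusted p = 0.175) but passed without ORS replicate 2 (-0.87, adjusted p = 0.0178). The sum of 8 immediate early genes, which rise within minutes when tissue is cut and digested, was 772 and 1322 CPM in suprabasal HB, 2030 and 2198 in basal HB, 1580 and 1627 in ORS, and 2774 to 3249 in HFSC. The part of such a response in the Per1 result was not tested.

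Per2 (ENSMUSG00000055866; chr1:91415982-91459324, minus strand), a PER repressor whose mutation in mice shortens the daily rhythm, had 12.1 and 12.4 CPM in suprabasal HB, 24.6 and 26.0 in basal HB, 21.3 and 28.5 in ORS, and 36.3, 29.8 and 36.2 in HFSC. The 3 levels, suprabasal HB, then basal HB with ORS, then HFSC, did not overlap. Suprabasal HB was 2.79-fold below HFSC (-1.48, SE 0.15, edgeR adjusted p = 5.44e-05), 2.04-fold below ORS (-1.02, SE 0.16, adjusted p = 0.00132) and 2.07-fold below basal HB (-1.05, SE 0.16, adjusted p = 0.00166), and these calls held in every alternative. The smaller steps to HFSC, -0.43 (SE 0.14, adjusted p = 0.0329) in basal HB and -0.45 (SE 0.14, adjusted p = 0.0311) in ORS, did not. Leaving out any of 5 libraries for basal HB (HFSC replicates 1 and 3, both basal HB libraries, suprabasal HB replicate 2) or any of 6 for ORS (these with ORS replicate 1) ended the call, at log2 changes from -0.47 to -0.25 and from -0.68 to -0.26 over all libraries left out. The highest adjusted p-values were 0.228 and 0.2. On the log2(TPM + 1) scale these 2 changes were -0.03 and -0.11 (limma adjusted p = 0.909 and 0.669).

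Per3 (ENSMUSG00000028957; chr4:151003652-151044665, minus strand), a PER gene that the mouse clock can run without, passed no test. It had 17.0 and 12 CPM in suprabasal HB, 16.8 and 13.4 in basal HB, 16.5 and 16.8 in ORS, and 16.6, 12.8 and 13.4 in HFSC, and all 4 populations overlapped. No difference among the populations was called (edgeR adjusted p = 0.7), and the widest contrast, ORS over HFSC, was 0.22 with a 95% interval of -0.20 to 0.65. A change as large as that of Per1 or Per2 in suprabasal HB over HFSC lay outside the interval for Per3 in that comparison (0.03, -0.40 to 0.45). Within each library Per1 stood above Per3 per length, by 2.73 and 3.33 times in suprabasal HB, 6.03 and 6.84 in basal HB, 3.95 and 6.56 in ORS, and 9.47, 8.04 and 8.81 in HFSC.

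Cry1 and Cry2 encode the cryptochromes, repressors of the BMAL1 and CLOCK pair, and in both hair bulb populations they differed from HFSC in opposite directions. Cry1 (ENSMUSG00000020038; chr10:85131700-85185064, minus strand) had 32.7 and 41.3 CPM in suprabasal HB, 32.2 and 37.0 in basal HB, 28.9 and 30.5 in ORS, and 28.1, 24.3 and 26.0 in HFSC. Its HFSC libraries were below all others. Cry1 was 1.42-fold higher in suprabasal HB than in HFSC (0.50, SE 0.12, edgeR adjusted p = 0.00753) and 1.32-fold higher in basal HB than in HFSC (0.41, SE 0.12, adjusted p = 0.0216); the second call was lost without basal HB replicate 2 (0.30, adjusted p = 0.165). ORS over HFSC (0.18, 95% interval -0.09 to 0.46), suprabasal HB over ORS (0.32, 0.02 to 0.62, adjusted p = 0.105), basal HB over ORS (0.22, -0.08 to 0.52) and suprabasal over basal HB (0.10, -0.20 to 0.40) were not called. Without suprabasal HB replicate 1 the comparison with ORS passed (0.47, adjusted p = 0.0356).

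Cry2 (ENSMUSG00000068742; chr2:92403646-92434043, minus strand) had 19.9 and 16.5 CPM in suprabasal HB, 22 and 21.3 in basal HB, 24.7 and 28.6 in ORS, and 42.3, 31.1 and 37.5 in HFSC. The ranges stepped up in that order with no overlap. Relative to HFSC it was 2.03-fold lower in suprabasal HB (-1.02, SE 0.15, edgeR adjusted p = 0.000497), 1.71-fold lower in basal HB (-0.77, SE 0.15, adjusted p = 0.00251) and 1.39-fold lower in ORS (-0.47, SE 0.15, adjusted p = 0.0293), and it was 1.47-fold lower in suprabasal HB than in ORS (-0.55, SE 0.16, adjusted p = 0.0287). The call of ORS against HFSC was lost without HFSC replicate 1 (-0.28, adjusted p = 0.169), HFSC replicate 3 (-0.37, 0.127), ORS replicate 1 (-0.37, 0.156) or suprabasal HB replicate 2 (-0.38, 0.0543). That of suprabasal HB against ORS was lost without HFSC replicate 3 (-0.55, 0.0502), ORS replicate 2 (-0.44, 0.157) or suprabasal HB replicate 2 (-0.41, 0.169). On the log2(TPM + 1) scale the changes of basal HB and ORS over HFSC were -0.30 and -0.06 (limma adjusted p = 0.242 and 0.827). In the annotation (GENCODE M21), 295 exon bases of Cry2, 4.67% of its exons, are shared with D930015M05Rik on the other strand, which stayed below 1 CPM in every library (0.269 and 0.528 in suprabasal HB, 0.431 and 0.437 in basal HB, 0.502 and 0.860 in ORS, 0.266 to 0.800 in HFSC).

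Nr1d1 and Nr1d2 encode REV-ERBα and REV-ERBβ, the repressors of Arntl. Nr1d1 (ENSMUSG00000020889; chr11:98767932-98775333, minus strand) had 9.09 and 7.32 CPM in suprabasal HB, 8.73 and 7.87 in basal HB, 7.78 and 8.28 in ORS, and 6.24, 7.89 and 7.42 in HFSC. All populations overlapped and no difference was called (edgeR adjusted p = 0.607 over the 4 populations). The log2 changes against HFSC were 0.19 (95% interval -0.19 to 0.57) in suprabasal HB, 0.21 (-0.17 to 0.59) in basal HB and 0.16 (-0.22 to 0.54) in ORS. Thra, a thyroid hormone receptor gene on the other strand, shares 263 exon bases with Nr1d1, 8.55% of its exons, and was at 91.9, 105, 59.1 and 69.7 CPM in suprabasal HB, basal HB, ORS and HFSC. The strand setting of the count is not stated, so reads of the shared bases cannot be told apart.

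Nr1d2 (ENSMUSG00000021775; chr14:18204054-18239127, minus strand) lay at 2 levels. It had 34.2 and 30.6 CPM in suprabasal HB, 18.1 and 18.0 in basal HB, 39.7 and 33.3 in ORS, and 16.8, 23.6 and 18.7 in HFSC. Suprabasal HB and ORS lay above basal HB and HFSC, with no overlap. It was 1.65-fold higher in suprabasal HB than in HFSC (0.72, SE 0.15, edgeR adjusted p = 0.00326), 1.86-fold higher in ORS than in HFSC (0.89, SE 0.15, adjusted p = 0.00154), 1.79-fold higher in suprabasal than in basal HB (0.84, SE 0.16, adjusted p = 0.00572), and 2.02-fold lower in basal HB than in ORS (-1.01, SE 0.16, adjusted p = 0.00183). Each held without any single library. On the TPM scale the change in suprabasal over basal HB missed the threshold (0.51, limma adjusted p = 0.0692, with a pseudocount of 1). Basal HB over HFSC (-0.12, 95% interval -0.46 to 0.22) and suprabasal HB over ORS (-0.17, -0.54 to 0.19) were not called.

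Dbp (ENSMUSG00000059824; chr7:45705088-45710203, plus strand) encodes an activator of the PAR bZIP family, known in liver for its wide daily swing. It had 6.82 and 6.02 CPM in suprabasal HB, 4.50 and 4.22 in basal HB, 4.12 and 3.58 in ORS, and 2.79, 2.04 and 2.65 in HFSC. The 4 ranges of CPM stepped down in that order with no overlap, in the reverse of the order of Cry2 in CPM. Relative to HFSC, Dbp was 2.57-fold higher in suprabasal HB (1.36, SE 0.19, edgeR adjusted p = 0.000446), 1.74-fold higher in basal HB (0.80, SE 0.20, adjusted p = 0.00877) and 1.54-fold higher in ORS (0.62, SE 0.20, adjusted p = 0.0318). Relative to ORS it was 1.67-fold higher in suprabasal HB (0.74, SE 0.21, adjusted p = 0.0275), and suprabasal over basal HB missed the threshold (0.56, 95% interval 0.08 to 1.03, adjusted p = 0.0792), as did basal HB over ORS (0.18, -0.29 to 0.66). The call of basal HB against HFSC was lost without basal HB replicate 1 (0.76, adjusted p = 0.0645). That of ORS against HFSC was lost without either ORS library (0.52, 0.136 without replicate 1; 0.72, 0.0518 without replicate 2) or either basal HB library (0.62, 0.0574 and 0.0572), and that of suprabasal HB against ORS was lost without ORS replicate 2 (0.64, 0.139), either suprabasal HB library (0.65, 0.118; 0.84, 0.0538) or either basal HB library (0.74, 0.0547 and 0.0546). Sphk2, on the other strand, shares 539 exon bases with Dbp, 18.0% of its exons, and was at 55.0, 42.3, 41.3 and 41.1 CPM in suprabasal HB, basal HB, ORS and HFSC. Reads of these shared bases cannot be told apart either, and their part in the Dbp result was not tested. Suprabasal HB over ORS also missed the threshold on the log2(TPM + 1) scale (0.43, limma adjusted p = 0.148).

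**Figure D2:**
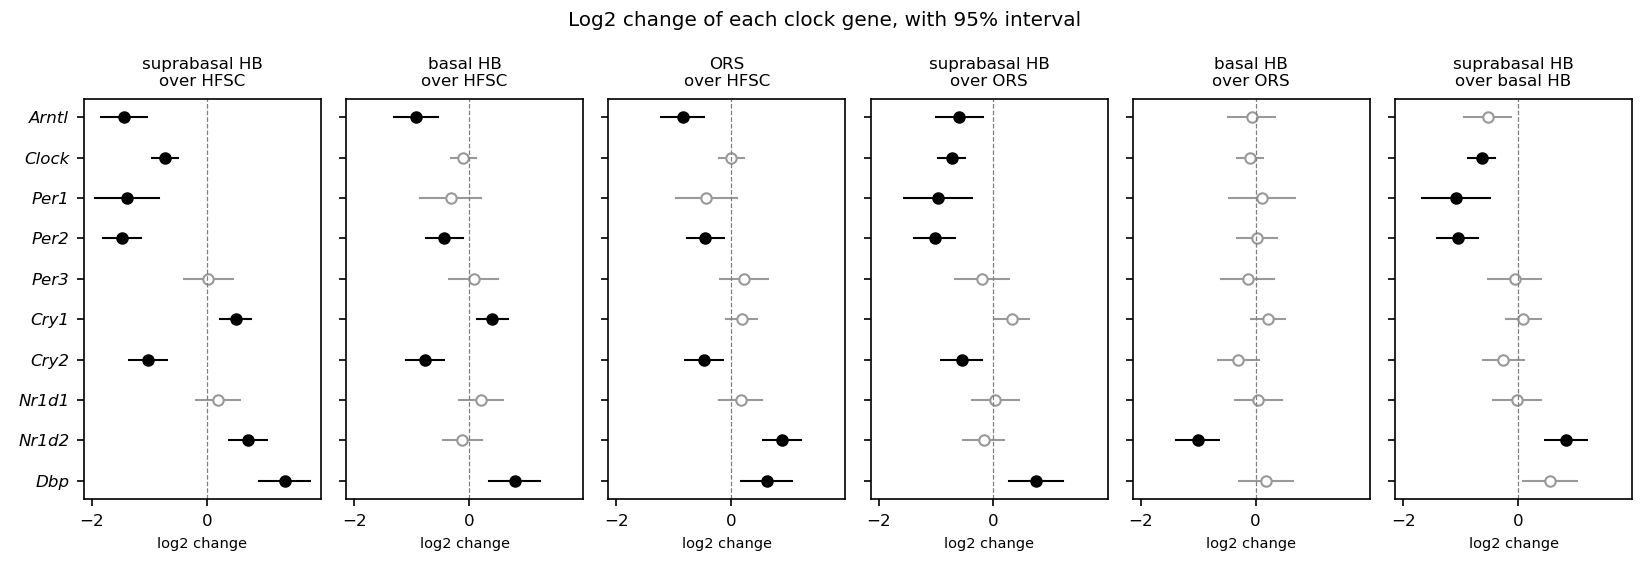
Log2 change (first population over second) of the 10 clock genes in the 6 comparisons, with the 95% interval from the edgeR fit as a line; filled black points passed an adjusted p of 0.05, open grey points did not. Suprabasal HB over HFSC holds 8 filled points, from -1.48 for Per2 to 1.36 for Dbp, and basal HB over ORS holds 1, Nr1d2 at -1.01.

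By comparison, 8 of the 10 clock genes were called in suprabasal HB over HFSC, 3 higher and 5 lower, where 51.5% of all genes were called. In basal HB over HFSC 5 were called, 2 higher and 3 lower, against 48.9% of all genes, and in ORS over HFSC also 5, 2 higher and 3 lower, against 41.9%. In suprabasal HB over ORS 6 were called, 1 higher and 5 lower, against 29.4%; in basal HB over ORS 1, lower, against 30.5%; and in suprabasal over basal HB 4, 1 higher and 3 lower, against 27.9%. The comparisons with HFSC share its 3 libraries, and each of the others shares libraries with some of them, so these counts are not independent. The median log2 change of the 10 was -0.35 in suprabasal HB over HFSC (all genes 0.02), -0.11 in basal HB over HFSC (0.00), 0.08 in ORS over HFSC (-0.05), -0.38 in suprabasal HB over ORS (-0.01), -0.02 in basal HB over ORS (-0.04) and -0.15 in suprabasal over basal HB (0.00). Their median size of change, regardless of sign, was 0.88, 0.36, 0.44, 0.57, 0.13 and 0.54 in the same order, and that of all genes was 0.62, 0.58, 0.52, 0.41, 0.37 and 0.39. The clock genes moved more than the median gene in each comparison of suprabasal HB and less in the other 3. Libraries of the pair did not overlap for 8, 6, 6, 7, 4 and 7 of the 10 genes, against 67.3%, 69.7%, 61.8%, 65.1%, 67.4% and 68.5% of all genes.

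Arntl and Dbp stand on opposite sides of the loop, and their ratio within a library does not depend on the scaling between libraries. Per length, Arntl was 1.31 and 2.09 times Dbp in suprabasal HB, 3.29 and 3.46 times in basal HB, 3.62 and 4.84 times in ORS, and 9.58, 12.5 and 10.5 times in HFSC. The 4 ranges did not overlap, which follows from the 2 genes' own changes and is not a separate finding. Arntl over Nr1d1 was 1.56 and 2.89 in suprabasal HB, 2.61 and 3.23 in basal HB, 3.08 and 3.53 in ORS, and 7.74, 5.73 and 6.67 in HFSC, with HFSC set apart and the rest overlapping in part.

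**Figure D3:**
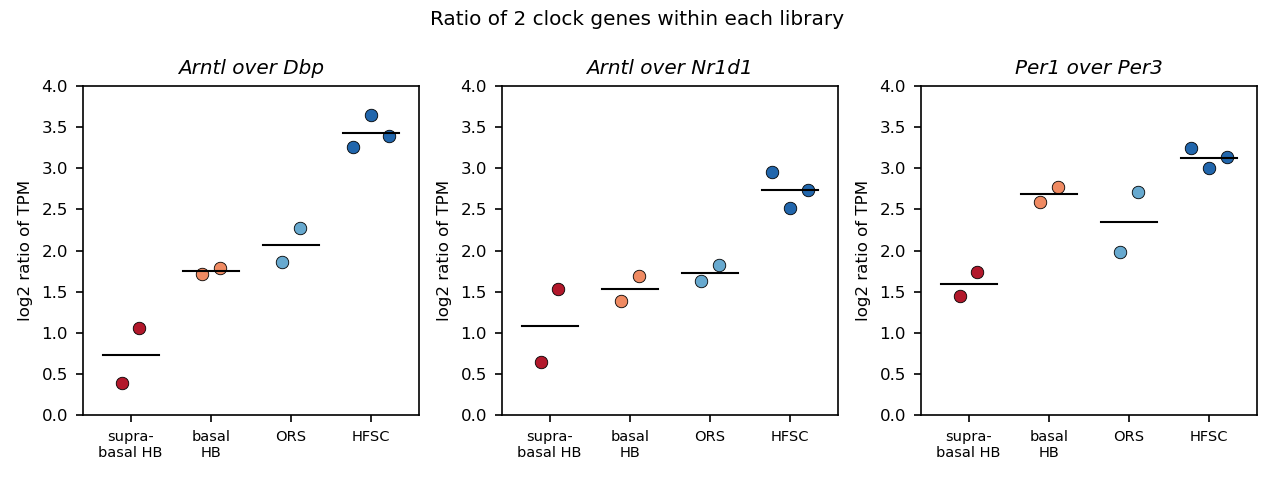
Log2 ratio of TPM (levels per length) of Arntl to Dbp, Arntl to Nr1d1 and Per1 to Per3 within each suprabasal HB, basal HB, ORS and HFSC library; points are libraries and bars population means. All 3 ratios are highest in HFSC, where Arntl to Dbp lies between 3.26 and 3.65, against 0.39 and 1.06 in suprabasal HB.

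The wider pathway was described from a list of 26 other clock genes, all of which passed the filter and 21 of which differed among the populations (65.6% of all genes). In suprabasal HB over HFSC 13 were higher and 6 lower, in basal HB over HFSC 11 and 6, in ORS over HFSC 7 and 8, in suprabasal HB over ORS 7 and 5, in basal HB over ORS 6 and 4, and in suprabasal over basal HB 5 and 3. Leaving out basal HB replicate 2 cut the last count from 8 to 5. The background for higher and lower calls was 25.2% and 26.3%, 22.8% and 26.1%, 18.1% and 23.8%, 14.3% and 15.1%, 15.8% and 14.7%, and 13.1% and 14.8% of all genes in the same order. The 26 genes had a median log2 change of 0.18, 0.20, 0.06, 0.01, 0.20 and -0.11.

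Rora and Rorb encode ROR receptors, which activate genes through ROREs such as the one printed above. Rorb had 6.71 and 4.75 CPM in suprabasal HB, 8.58 and 8.21 in basal HB, 2.13 and 1.82 in ORS, and 0.326, 0.620 and 0.436 in HFSC. Both hair bulb populations lay above ORS and HFSC, with no overlap. It was 12.5-fold higher in suprabasal HB, 18.4-fold in basal HB and 4.32-fold in ORS than in HFSC (edgeR adjusted p = 1.15e-05, 1.18e-05 and 0.000578). The 95% intervals of these folds were 8.06 to 19.5, 11.8 to 28.6 and 2.76 to 6.74. The HFSC level is low, resting on 9.41, 13.61 and 11.62 expected counts. Relative to ORS it was 2.91-fold and 4.26-fold higher in suprabasal and basal HB (adjusted p = 0.00276 and 0.000707). Rora had 15.2 and 24.9 CPM in suprabasal HB, 23.1 and 22.6 in basal HB, 5.2 and 5.3 in ORS, and 7.98, 7.66 and 9.09 in HFSC. Its levels were 2.77-fold higher in basal HB than in HFSC (edgeR adjusted p = 0.000359), and 3.81-fold and 4.35-fold higher in suprabasal and basal HB than in ORS (0.000275 and 0.000284). Npas2, a paralogue of Clock, peaked in basal HB at 5.83 and 6.46 CPM, against 2.31 and 2.49 in suprabasal HB, 1.10 and 1.95 in ORS and 2 to 2.54 in HFSC. It was 2.71-fold higher in basal HB than in HFSC and 4.05-fold higher than in ORS (edgeR adjusted p = 0.00187 and 0.00114), and 2.56-fold lower in suprabasal than in basal HB (0.00864), which was lost without basal HB replicate 2 (-1.28, adjusted p = 0.0563). Arntl2, the paralogue of Arntl, was not called (edgeR adjusted p = 0.341 over the 4 populations).

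Among the PAR bZIP factors that share D-boxes with Dbp, Hlf was the most uneven. It had 63.3 and 53.3 CPM in suprabasal HB, 9.36 and 7.09 in basal HB, 3.90 and 4.86 in ORS, and 3.77, 4.30 and 4.36 in HFSC. Suprabasal HB was 14.1-fold above HFSC (log2 change 3.82, SE 0.17, edgeR adjusted p = 9.71e-07), 13.3-fold above ORS (3.73, SE 0.20, adjusted p = 8.06e-06) and 7.09-fold above basal HB (2.83, SE 0.19, adjusted p = 4.38e-05). Tef, in contrast, was lowest in basal HB, at 33.5 and 33.9 CPM, against 51.1 and 58.6 in suprabasal HB, 49.7 and 56.8 in ORS and 55.5 to 66.9 in HFSC. It was 1.79-fold and 1.58-fold lower in basal HB than in HFSC and ORS (edgeR adjusted p = 0.000314 and 0.00303) and 1.63-fold higher in suprabasal than in basal HB (0.0029). Nfil3, which represses at the D-box, had 18.4 and 18.8 CPM in suprabasal HB, 21.4 and 24.5 in basal HB, 24.0 and 41.8 in ORS, and 49.5, 63.8 and 61.4 in HFSC. It was 3.13-fold lower in suprabasal HB and 2.54-fold lower in basal HB than in HFSC (edgeR adjusted p = 0.000334 and 0.00113). Its change in suprabasal HB over ORS (-0.82, adjusted p = 0.0275) fell below the threshold without ORS replicate 2 (-0.37, 0.178) or either suprabasal HB library (-0.81, 0.0988; -0.82, 0.101). In suprabasal HB over HFSC the D-box activators Dbp and Hlf were higher and the repressor Nfil3 lower, while Tef was not called (-0.14, 95% interval -0.38 to 0.10).

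The repressors that act on the BMAL1 and CLOCK pair or at its E-boxes, Bhlhe40, Bhlhe41, Ciart and Cipc, were all 4 called higher in suprabasal HB than in HFSC, where 25.2% of all genes were. Bhlhe41, which encodes DEC2, had 136 and 119 CPM in suprabasal HB, 15.2 and 11.1 in basal HB, 10.3 and 6.53 in ORS, and 33.6, 34.6 and 21.5 in HFSC. Suprabasal HB was 4.27-fold above HFSC, 15.2-fold above ORS and 9.69-fold above basal HB (edgeR adjusted p = 0.000128, 3.4e-05 and 0.000142). Basal HB and ORS were 2.27-fold and 3.56-fold below HFSC (adjusted p = 0.00511 and 0.00087), the first lost without basal HB replicate 2 (-0.98, 0.051). Cipc had 80.1 and 71.3 CPM in suprabasal HB, 34.9 and 34.7 in basal HB, 50.8 and 51.5 in ORS, and 36.1 to 40.8 in HFSC, and was 2.17-fold higher in suprabasal than in basal HB (adjusted p = 9.47e-05) and 1.47-fold lower in basal HB than in ORS (0.00201). The second call was lost on log2(TPM + 1) and log2(TPM + 0.1) (-0.53 and -0.55, limma adjusted p = 0.0529 and 0.0544). Ciart, a low gene, was 2.50-fold higher in suprabasal HB (2.87 and 3.26 CPM) than in HFSC (1.05 to 1.42 CPM; adjusted p = 0.00207). Bhlhe40, named here after its values were seen to complete the 4, was 1.67-fold higher in suprabasal HB (119 CPM) than in HFSC (71.3 CPM, edgeR adjusted p = 0.000419). Bhlhe40 was also 1.73-fold higher in basal HB (123 CPM) than in HFSC (edgeR adjusted p = 0.000357), and Ciart 1.84-fold higher (1.83 and 2.68 CPM in basal HB, 0.0173). Neither gene was called in suprabasal over basal HB (log2 change -0.05 for Bhlhe40 and 0.44 for Ciart, edgeR adjusted p = 0.811 and 0.247). Pigment cell markers were also highest in suprabasal HB, as given above, and their part in the Hlf, Bhlhe41 and Dbp results was not tested. Nor was their part in any other result of suprabasal HB, such as its lower Arntl, Clock, Per1, Per2 and Cry2.

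**Figure D4:**
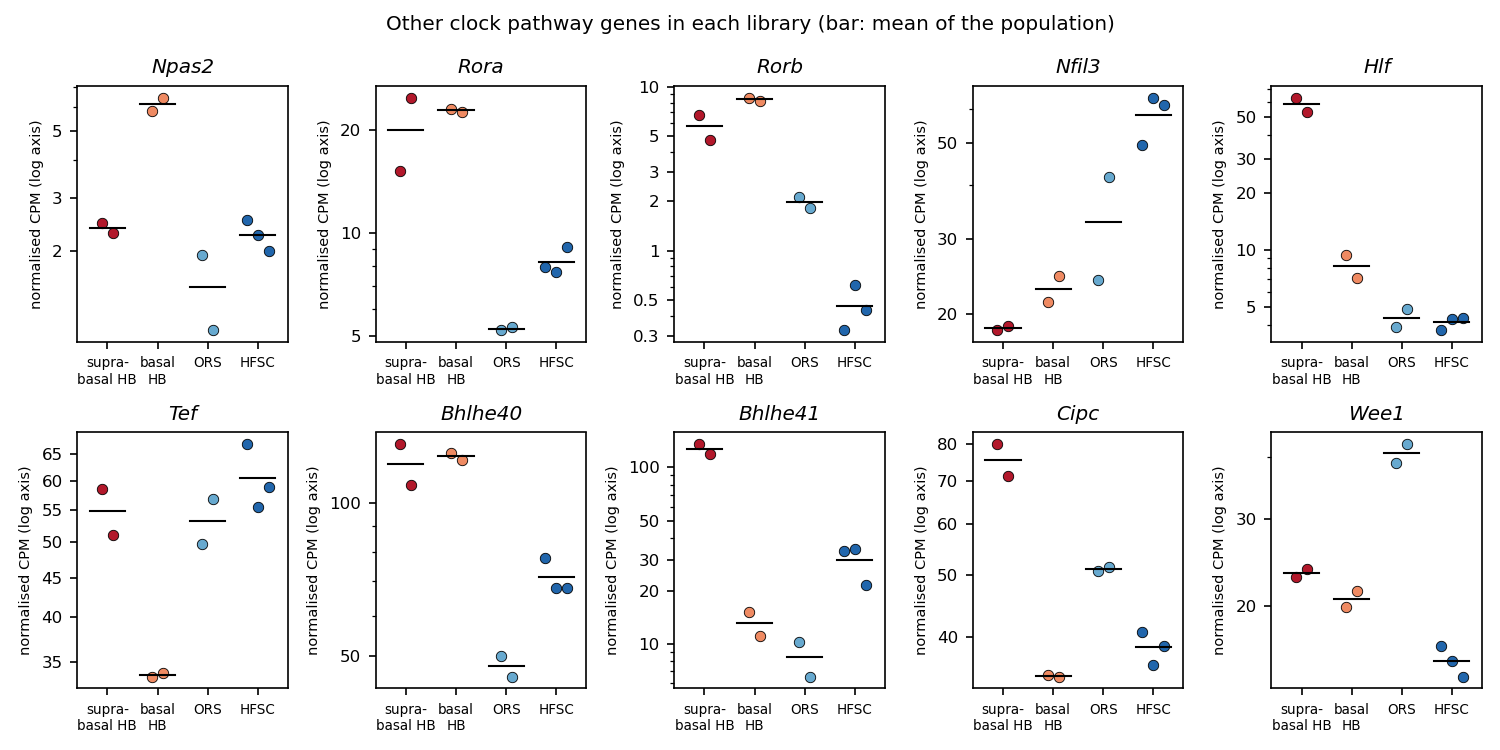
Normalised CPM (log axis) of 10 other clock pathway genes in each suprabasal HB, basal HB, ORS and HFSC library; points are libraries and bars population means. Rorb is highest in basal HB (8.58 and 8.21), and Hlf and Bhlhe41 are highest in suprabasal HB.

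Of the genes for 8 kinases and ubiquitin ligases that act on PER and CRY, none was called by edgeR between the populations other than HFSC. In suprabasal HB over ORS, basal HB over ORS and suprabasal over basal HB, 0 of 8 were called, against 29.4%, 30.5% and 27.9% of all genes (1 of 8 had an unadjusted p under 0.05 in each). DESeq2 called 1, 0 and 1, and limma on log2(TPM + 1) called 2, 0 and 2. Their median size of change was 0.09, 0.14 and 0.10 there, against 0.41, 0.37 and 0.39 for all genes. Against HFSC, 2 were higher and 2 lower in suprabasal HB, 2 higher and 1 lower in basal HB, and 2 higher and 2 lower in ORS. These shares lie near those of all genes called there, 51.5%, 48.9% and 41.9%. Fbxl21, a ligase for CRY proteins and the lowest of the 8, was 2.25-fold lower in suprabasal HB (0.528 and 0.537 CPM) and 2.05-fold lower in ORS (0.517 and 0.648 CPM) than in HFSC (0.975 to 1.56 CPM; edgeR adjusted p = 0.014 and 0.0254). Both were lost without HFSC replicate 1 (-0.84, 0.0558; -0.71, 0.1) or without either library of the first population (-1.16 and -1.08, 0.067 and 0.0787; -0.89 and -1.21, 0.131 and 0.0609).

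Of the 6 remaining genes, Wee1 and Timeless, which also act in the cell cycle, were highest in ORS. Wee1 had 22.9 and 23.8 CPM in suprabasal HB, 19.9 and 21.4 in basal HB, 39.0 and 42.5 in ORS, and 16.6, 15.5 and 14.4 in HFSC. It was 2.63-fold higher in ORS than in HFSC (edgeR adjusted p = 4.11e-05), and 1.74-fold and 1.97-fold lower in suprabasal and basal HB than in ORS (0.000625 and 0.000321). Timeless was 2.07-fold higher in ORS (86.7 and 93.6 CPM) than in HFSC (40.2 to 47.5 CPM; adjusted p = 0.000102) and 1.86-fold lower in basal HB than in ORS (0.000499). The proliferation gene Mki67 was also highest in ORS, at 1037 CPM, against 686 in suprabasal HB, 549 in basal HB and 391 in HFSC, and its part in these results was not tested. Tsc22d3, which encodes the glucocorticoid-induced protein GILZ, had 25.7 and 20.6 CPM in suprabasal HB, 44.1 and 48.8 in basal HB, 14.8 and 9.38 in ORS, and 9.86, 11.5 and 10.2 in HFSC. It was 4.42-fold higher in basal HB than in HFSC and 3.86-fold higher than in ORS (adjusted p = 4.05e-05 and 0.000313), and 2.01-fold lower in suprabasal than in basal HB (0.00765); the last was lost without basal HB replicate 2 (-0.93, 0.0532) or suprabasal HB replicate 2 (-0.88, 0.0511). Klf9, another glucocorticoid-responsive gene, was lowest in suprabasal HB at 17.5 and 15.7 CPM, 2.22-fold below HFSC, 2.12-fold below ORS and 2.64-fold below basal HB (adjusted p = 0.00072, 0.00269 and 0.00105). Tsc22d3 and Klf9 differed in their order over the populations. Usp2, a deubiquitinase gene, was highest in HFSC (10.9 to 13.5 CPM), and relative to it 1.90-fold lower in suprabasal HB (5.95 and 6.54 CPM), 1.44-fold lower in basal HB (7.87 and 8.57 CPM) and 1.96-fold lower in ORS (5.88 and 6.25 CPM; adjusted p = 0.00114, 0.0191 and 0.00139). The call in basal HB was lost without any HFSC or basal HB library or suprabasal HB replicate 2 (-0.59 to -0.30 over all libraries left out, adjusted p up to 0.153). Nampt, which makes the precursor of NAD, was 1.90-fold higher in suprabasal HB (134 and 164 CPM), 2.09-fold in basal HB (160.2 and 167 CPM) and 1.70-fold in ORS (123 and 143 CPM) than in HFSC (68.9 to 89.9 CPM; adjusted p = 0.000465, 0.00026 and 0.00213). The hair bulb values of Usp2 and Nampt lie outside the rule for named genes and were added after they were seen.

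The genes whose pattern over the 9 libraries was closest to a member were found by the root mean square difference of centred log2 CPM among 15013 genes, as a description. For Arntl they were Marcksl1 (0.11), Nxn (0.12), Vasp (0.13), Gys1 (0.13) and Scarb2 (0.13); Marcksl1 had means of 384, 586, 552 and 904 CPM in suprabasal HB, basal HB, ORS and HFSC. For Dbp they were C030034I22Rik (0.05), Epb4.1 (0.10), Cdr2l (0.11), Ssbp4 (0.12) and H2afj (0.13); Epb4.1 had means of 168, 126, 104 and 72.1 CPM. For Nr1d1 they were Tmem44 (0.06), Dynlt1c (0.09), Ccnl1 (0.09), Gm13199 (0.09) and Ccdc186 (0.10). Since Nr1d1 itself was not called among the populations (edgeR adjusted p = 0.607), closeness to it can mean only that a gene also varied little.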

How the data were processed

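RNA of 9 sorted libraries was sequenced as read pairs after poly(A) selection with an Illumina kit, per the labels' protocols. Bowtie2 2.2.9, RSEM 1.2.30 and mm10 are named in the submitters' processing notes; strand and parameters are not given in the sources used here. The deposited tables give RSEM expected counts per gene, not scaled for depth, and TPM, scaled by the authors per length and to a fixed sum. The deposited effective length of each gene was also used. A deposited table of the whole series was not used; it holds 9 per-sample columns. Rows of spike-in standards, at 0 in every library, were left out.

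Expected counts were rounded to whole numbers for edgeR 4.0.16 (R 4.3.3), with filterByExpr, TMM and 1 quasi-likelihood model of all 9 libraries, its terms being the 4 populations, over 20491 genes. Contrasts were 2-sided F-tests with Benjamini-Hochberg adjustment over all genes and a threshold of 0.05; SE is the size of the log2 change over the square root of F, and 95% intervals use the fit's total degrees of freedom. CPM are normalised by TMM. The fit was tested on simulated counts.

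The members and gene lists were chosen with earlier results of these data known. All members are named; of the other clock genes, up to 4 called in each direction per comparison, by size of change. 1 of these is counted in its list but not reported by name here. 1 listed marker, Krt85, was not found in the tables. Alternatives were other scalings and filters, a replicate block, pairwise fits, each library left out, DESeq2 1.42.0, and limma 3.58.1 on log2(TPM + 1) and log2(TPM + 0.1). Positions and overlaps are from GENCODE M21, promoters from RefSeq. Depth sets the precision of low genes, and reads without molecular identifiers are not independent molecules.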

Additional observations from a re-analysis of the deposited data

How the results depend on the processing

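Of 60 results for the 10 clock genes, 29 were called; 0 of these reversed and 16 kept their call in all 18 alternatives. The count called in ORS over HFSC fell to 3 of 10 with upper-quartile scaling, with no filter and with a replicate block, and to 2 with only those populations, against 5; the count in suprabasal HB over ORS fell to 2 with only those populations, against 6, with Arntl, Per1, Cry2 and Dbp lost (adjusted p = 0.133, 0.0623, 0.0737 and 0.0733). In basal HB over HFSC the replicate block gave 3, against 5. Deviations of same-numbered libraries from their population mean correlated at -0.22 to 0.28. Between populations of 2 libraries, replicates 1 and 2 give the same value by construction (0.28, 0.09 and 0.16), so these values are not all separate. No label says what the number stands for, so the libraries were taken to share only a number. The cause of these shifts was not tested.

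Leaving out 1 library at a time gave 8 to 8 called genes in suprabasal HB over HFSC, 3 to 5 in basal HB over HFSC, 2 to 5 in ORS over HFSC, 2 to 6 in suprabasal HB over ORS, 1 to 1 in basal HB over ORS, 3 to 4 in suprabasal over basal HB, and 7 to 8 over all 4 populations. For the 26 other genes it gave 17 to 19, 13 to 17, 12 to 15, 10 to 13, 10 to 13 and 5 to 9. Of 52 results for them picked by the rule for named genes or added after it, 41 kept their call in every alternative and 0 reversed. The 52 include results of the gene not reported by name here. On the TPM scale with a pseudocount of 1 the Tef changes in basal HB over HFSC and in suprabasal over basal HB were not called (limma adjusted p = 0.0822 and 0.193).

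All reversals were of uncalled changes, the largest of which in the fit of all 9 libraries was Per1 in basal HB over HFSC (-0.32). With the block they were Clock in ORS over HFSC (-0.038) and Per3 in suprabasal HB over HFSC (-0.023). In basal HB over HFSC Clock turned to 0.04 with upper-quartile scaling, 0.007 with no filter, 0.25 on log2(TPM + 1) and 0.26 on log2(TPM + 0.1); Per1 turned to 0.039 and 0.04 on the TPM scales; Nr1d2 turned to 0.018 with upper-quartile scaling and to 0.29 and 0.33 on the TPM scales. On the TPM scales Nr1d1 turned to -0.16 and -0.19 in suprabasal HB over ORS, and Cry1 to -0.17 and -0.18 in suprabasal over basal HB. With a library left out, sign changes gave these ranges: in ORS over HFSC Clock -0.09 to 0.11; in basal HB over HFSC Clock -0.10 to 0.062, Per1 -0.38 to 0.001, Per3 -0.092 to 0.34 and Nr1d2 -0.12 to 0.16; in suprabasal HB over HFSC Per3 -0.25 to 0.36; in basal HB over ORS Arntl -0.22 to 0.10, Per1 -0.22 to 0.56, Per2 -0.17 to 0.25, Per3 -0.32 to 0.014 and Nr1d1 -0.03 to 0.12; in suprabasal HB over ORS Per3 -0.47 to 0.047 and Nr1d1 -0.13 to 0.19; in suprabasal over basal HB Per3 -0.33 to 0.14, Cry1 -0.11 to 0.25 and Nr1d1 -0.18 to 0.10.

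On log2(TPM + 1) the median of all genes shifted by 0.22 in basal HB over HFSC, 0.18 in ORS over HFSC, -0.12 in suprabasal HB over ORS and -0.16 in suprabasal over basal HB, and with 0.1 by 0.34, 0.27, -0.20 and -0.25. Upper-quartile scaling shifted it by 0.14 and no filter by 0.10 in basal HB over HFSC. Among all called genes the share higher was 72.5% on log2(TPM + 1) and 57.2% with upper-quartile scaling, against 46.7%, in basal HB over HFSC; 68.5% against 43.2% in ORS over HFSC; 31.3% against 48.6% in suprabasal HB over ORS; and 20.5% against 46.8% in suprabasal over basal HB. On both TPM scales Cry1 in ORS over HFSC (0.49 and 0.52, adjusted p = 0.0124 and 0.0117) and Nr1d1 in basal HB over HFSC (0.57 and 0.66, 0.0265 and 0.0233) were called higher; the shift of all genes has the same sign.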
